A study of Homo sapiens with 8 samples.

Results

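The RBM family comprises proteins named for an RNA-binding motif, and its transcripts were followed here in SQ20B cells kept in normoxia or hypoxia. SQ20B is an established human cell line from a head and neck squamous cell carcinoma. Members were the genes whose symbol is RBM followed by a number, or starts with RBMS, RBMX or RBMXL, together with CIRBP, while RBMY genes were left out. This gave 41 genes of 14524 named genes in the deposited table, and 82 of its 24812 transcripts. Polyadenylated RNA was sequenced from 4 normoxic replicates and 4 hypoxic replicates, the latter at 0.5% oxygen for 16 h, and all cells were otherwise grown in the same medium without a further agent. The table holds 1 FPKM value per transcript and condition, pooled over the replicates by the authors, a unit that corrects fragment numbers for transcript length and sequencing depth. The spread between replicates and the read counts of single samples were therefore not analysed here, so the differences below carry no error and no test, and they describe these pooled values of 1 cell line only.

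Most RBM proteins carry one or more RNA recognition motifs, a compact fold that binds single-stranded RNA. They act at many steps of the life of an RNA, including splice site choice, spliceosome assembly, methylation of adenosine, ribosome maturation in the nucleolus and decay in the nucleus. RBM3 and CIRBP form a pair of small glycine-rich proteins best known because mild cooling induces them, and both are studied as stress-responsive RNA-binding proteins. RBMX, also called hnRNP G, is an abundant nuclear regulator of splicing, and RBM39 is related to the splicing factor U2AF.

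The family was mostly at a lower level in hypoxia. Changes are given as log2 of hypoxia over normoxia after adding 0.1 FPKM to each value, with the transcripts of a gene summed, and 39 of the 41 genes had a mean of at least 0.5 FPKM. Of these 39 genes, 30 had a change below 0, which is 76.9% compared with 56.4% of all 12103 genes above the same limit. The median change of the family was -0.28 and that of all genes -0.07. At least 1.5-fold lower were 5 family genes, RBM3, RBM23, RBM15B, RBM28 and RBMXL1, or 12.8% of those above the limit, where 11.2% of all genes were. No family gene was at least 1.5-fold higher, where 9.94% of all genes were. The share of genes past 1.5-fold downward was thus close to that of the whole table.

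The direction of small changes depended on how the columns were scaled. The FPKM values of the whole table summed to 536005 in normoxia and 458431 in hypoxia, and scaling both columns to the same sum moved the median of all genes from -0.07 to 0.15. Relative to the median gene, 27 of the 39 family genes were lower with either scaling. A change below 0 was found for 22 family genes under each scaling tried, and one above 0 for 9. The sign differed between scalings for the other 8, which were RBM4B, RBM6, RBM7, RBM12, RBM22, RBM47, RBM48 and RBMS2. As a check of the labels, the hypoxia-induced genes CA9, VEGFA, NDRG1 and ADM were higher by 1.02 to 5.58 on the log2 scale. The squamous epithelial markers KRT5 and TP63 stood at 398 and 42.8 FPKM in normoxia and 442 and 44.6 FPKM in hypoxia, and the epithelial marker EPCAM at 317 and 233 FPKM. KRT14, also listed as a marker, was not analysed here.

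**Figure D1:**
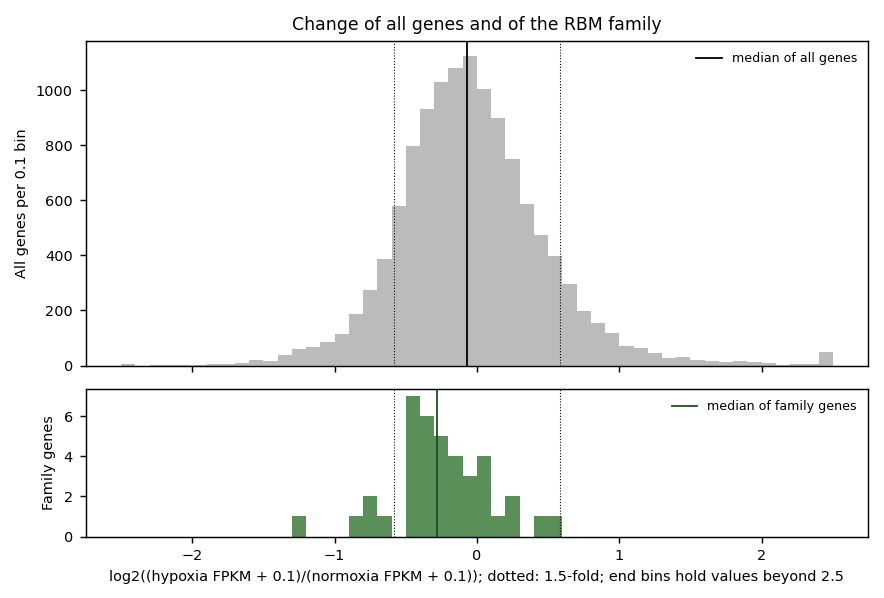
Histograms of the log2 change, hypoxia against normoxia, for all 12103 genes above the limit (top) and the 39 family genes (bottom), in bins of 0.1, with solid lines at the medians and dotted lines at 1.5-fold. The family median lies at -0.28 and that of all genes at -0.07, and no family gene lies beyond the upper dotted line. With both columns scaled to equal sums the median of all genes moves to 0.15. At that scaling 2 family genes and 18.6% of all genes pass that line.

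Sequence near the start sites is shown for the cold-inducible pair and for RBM15 and RBM15B, since each pair has related proteins but unequal changes in hypoxia. Hypoxia-inducible factors bind a core of RCGTG, searched here as ACGTG and GCGTG on both strands. Capitals mark each match, so that CACGTG holds ACGTG on both strands and CACGC is GCGTG read on the other strand. The sequences are those of RefSeq promoters (GRCh38.p14), matched exactly to the plus strand of GRCh37. For CIRBP (chr19:1269081-1269264) and RBM15B (chr3:51428466-51428697) they end before the first listed start or annotated exon of the gene within the window, though the CIRBP stretch lies inside the annotated span of that gene, downstream of the starts of longer transcripts. For RBM3 (chrX:48432803-48432832) and RBM15 (chr1:110881806-110881835), whose matches lie in sequence that some annotation counts as transcribed, 30 bases around the match are shown.
CIRBP: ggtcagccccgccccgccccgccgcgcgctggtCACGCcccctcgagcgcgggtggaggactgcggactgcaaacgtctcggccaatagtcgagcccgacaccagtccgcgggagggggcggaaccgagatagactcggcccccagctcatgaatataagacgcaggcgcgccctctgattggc
RBM3: cagccaatcagCACGCACGCcgggacgcgc
RBM15: aacactttgggtCACGTGaccgcagagtgc
RBM15B: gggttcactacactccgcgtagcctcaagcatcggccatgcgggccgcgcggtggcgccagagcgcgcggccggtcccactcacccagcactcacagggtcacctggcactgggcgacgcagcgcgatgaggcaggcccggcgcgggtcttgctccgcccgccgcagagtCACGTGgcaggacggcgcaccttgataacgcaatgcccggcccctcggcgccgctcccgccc

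RBM15 and RBM15B both hold CACGTG, and their changes in hypoxia had opposite signs. Whether this core bears on either change was not tested. ACGTG was found in 7 of the 41 family promoters, or 17.1%, and in 21.4% of all 35116 promoters of 300 bases. GCGTG was found in 21 family promoters, or 51.2%, and in 36.5% of all. The median GC content was 60.7% in the family promoters and 58.7% in all promoters. These are matches of letters only, in 41 promoters of 37 family genes.

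RBM3 had the lowest change of the family. Its level was 41.4 FPKM in normoxia and 17.5 FPKM in hypoxia, 2.36-fold lower (log2 change -1.24). Its place in the order of family levels went from 9 to 20, and 1.15% of all genes lay below its change. CIRBP stood at 56.3 FPKM in normoxia and 42.7 FPKM in hypoxia, a log2 change of -0.40, and was the fourth most abundant family gene in both conditions. Both cold-inducible genes thus had a change below 0, and RBM3 alone of the pair was past 1.5-fold. Their proteins were identical at 72.4% of 152 aligned residues, and glycine made up 20.4% of RBM3 and 16.5% of CIRBP against a family median of 6.60%. The proteins compared had 157 residues for RBM3 and 297 for CIRBP. Each came from 1 annotated transcript of its gene, and whether that is the most abundant one here was not tested. RBM3 lies on chromosome X at 48432837 to 48439550 and CIRBP on chromosome 19 at 1259383 to 1274879 (GRCh37).

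RBMX was the most abundant member, at 230 FPKM in normoxia and 168 FPKM in hypoxia (log2 change -0.45). RBMX alone made up 18.4% of the summed family FPKM in normoxia and 17.0% in hypoxia. RBMXL1, a copy of RBMX that arose by retrotransposition, went from 37.9 to 24.1 FPKM, with a log2 change of -0.65 that was the one nearest inside the 1.5-fold line. It was not past that line under any other scaling tried, and was at -0.58 after centring on the median gene, -0.54 after quantile normalization and -0.43 at equal sums. The proteins of both genes were identical at 95.4% of aligned residues, so reads may be shared between them and their separate levels are uncertain. RBMXL1 also shares its listed locus with KYAT3. RBMX2, a subunit of the RES complex of the spliceosome, stood at 22.8 and 18.0 FPKM (log2 change -0.34).

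After RBMX the highest mean levels were those of RBM39, RBM4, CIRBP and RBM34, and these 5 genes held 47.5% of the summed family FPKM in normoxia. RBM39 was at 170 FPKM in normoxia and 139 FPKM in hypoxia. RBM4, which regulates splicing and translation, was at 83.9 and 64.1 FPKM. RBM34, a nucleolar protein, was at 52.4 and 40.0 FPKM. The log2 changes of the 3 genes were -0.28, -0.39 and -0.39. The summed FPKM of the family was 1247 in normoxia and 986 in hypoxia, so that hypoxia held 79.1% of the normoxic sum, where the whole table held 85.5%.

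Abundant members were more often lower than scarce ones, as were abundant genes of the whole table. Of 27 family genes with a mean of at least 10 FPKM, 23 had a change below 0, with a median of -0.32. Among all 5809 genes at that level, 68.3% were below 0 and the median was -0.18. Of the 12 family genes between 0.5 and 10 FPKM, 7 were below 0, with a median of -0.10, while 45.5% of all genes in that range were below 0, with a median of 0.05.

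**Figure D2:**
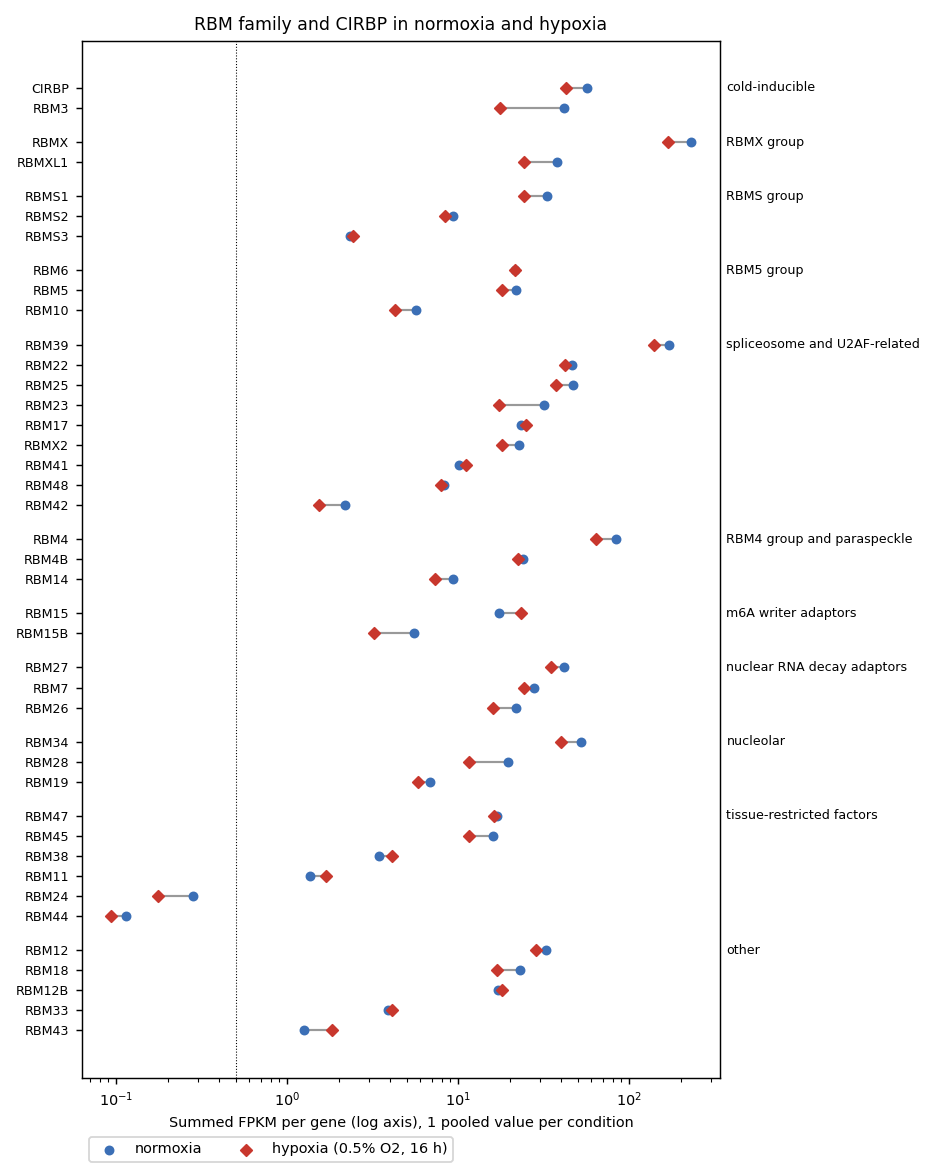
Summed FPKM of each of the 41 family genes in normoxia (circles) and hypoxia (diamonds) on a log axis, grouped by role, with 1 pooled value per condition and a dotted line at 0.5 FPKM. RBMX stands highest in both conditions, RBM3 has the longest step to the left among genes above the line, and RBM24 and RBM44 lie below the line. Steps of 8 genes change direction with the scaling of the columns, all of them short.

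Of the 9 genes of the spliceosome and the U2AF-related group, 7 had a change below 0 and 1 was at least 1.5-fold lower, with a median of -0.28. These shares of 77.8% and 11.1% compare with 56.4% and 11.2% of all genes, and the sign of 2 of the 7, RBM22 and RBM48, depended on the scaling. The gene at least 1.5-fold lower was RBM23, a close relative of RBM39. RBM23 went from 31.9 to 17.3 FPKM (log2 change -0.88). The protein of RBM23 was identical to that of RBM39 at 69.6% of aligned residues, and the change of RBM39 was smaller by 0.60 on the log2 scale. RBM42, a protein of the tri-snRNP, was the gene nearest outside the line, at 2.16 and 1.53 FPKM. RBM25, which acts in the choice of splice sites, stood at 46.6 and 37.4 FPKM. RBM22, a protein of the catalytic core of the spliceosome, stood at 46.5 and 42.0 FPKM. Above 0 were RBM17, which takes part in the choice of 3′ splice sites and was at 23.3 and 24.7 FPKM, and RBM41, at 10.0 and 11.1 FPKM.

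RBM5, RBM6 and RBM10 are related splicing regulators that have been studied in lung cancer. RBM10 stood at 5.69 FPKM in normoxia and 4.29 FPKM in hypoxia, a log2 change of -0.40. RBM5 stood at 21.9 and 17.9 FPKM, a log2 change of -0.28. RBM6, next to RBM5 on chromosome 3, was nearly level at 21.6 and 21.5 FPKM, and its sign depended on the scaling. The proteins of RBM5 and RBM10 were identical at 59.8% of aligned residues and those of RBM5 and RBM6 at 40.7%. The RBM4 group on chromosome 11 had 3 of 3 changes below 0, where 56.4% of all genes were below 0. RBM4B, identical to RBM4 at 91.1% of aligned residues, stood at 24.0 and 22.3 FPKM, where the sign depended on the scaling. RBM14, a paraspeckle protein and transcriptional coactivator, stood at 9.31 and 7.34 FPKM. RBM4 and RBM4B may share reads, and RBM4, RBM4B and RBM14 share 1 listed locus.

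The RBM15 genes, which bring the m6A methylation complex to its target RNAs, had changes of opposite sign. RBM15 stood at 17.4 FPKM in normoxia and 23.2 FPKM in hypoxia, with a log2 change of 0.41. At equal sums its change was 0.64 and then past 1.5-fold. RBM15B stood at 5.51 and 3.23 FPKM, 1.69-fold lower, with a log2 change of -0.75 that was -0.53 at equal sums and then short of 1.5-fold. The changes differed by 1.17 on the log2 scale, a difference that scaling of the columns leaves nearly untouched. Their proteins were identical at 49.0% of aligned residues. RBM15B lies on chromosome 3 at 51428716 to 51435339 and shares its listed locus with DCAF1.

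Of the 3 nucleolar members, 1 was at least 1.5-fold lower, where 11.2% of all genes were. All 3 had a change below 0, as 56.4% of all genes did. RBM28 went from 19.4 to 11.5 FPKM, 1.69-fold lower (log2 change -0.75), and its change at equal sums was -0.53, short of 1.5-fold. RBM19, a factor of ribosome assembly, stood at 6.86 and 5.81 FPKM, with a change of only -0.014 at equal sums, and RBM34 is given above. The 3 adaptors of nuclear RNA decay were also below 0, with a median of -0.26. Of these RBM26 stood at 21.8 and 16.0 FPKM and RBM27 at 41.6 and 34.8 FPKM, both partners of the poly(A) tail exosome targeting (PAXT) pathway. RBM7, of the nuclear exosome targeting (NEXT) complex, stood at 27.9 and 24.4 FPKM, and its sign depended on the scaling.

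The RBMS genes encode proteins that bind single-stranded nucleic acids. RBMS1 stood at 33.2 FPKM in normoxia and 24.1 FPKM in hypoxia, a log2 change of -0.46. RBMS2 stood at 9.31 and 8.32 FPKM, where the sign depended on the scaling. RBMS3 was low in these cells, at 2.32 and 2.42 FPKM. The order of the 3 levels was the same in both conditions, while the protein of RBMS1 was closer to that of RBMS3 (78.9% identical) than to that of RBMS2 (70.3%).

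Among the members known chiefly from particular tissues, RBM45 stood at 15.9 FPKM in normoxia and 11.6 FPKM in hypoxia. RBM47, an epithelial regulator of splicing and RNA editing, stood at 16.8 and 16.2 FPKM, where the sign depended on the scaling. RBM38, a p53 target that acts on mRNA stability, stood at 3.43 and 4.11 FPKM, and RBM11 at 1.36 and 1.68 FPKM. RBM24, known from muscle, was at 0.280 and 0.175 FPKM and RBM44 at 0.114 and 0.0927 FPKM, both below the limit. In the remaining group RBM18 stood at 23.0 and 16.9 FPKM, and RBM12 at 32.8 and 28.4 FPKM, where the sign depended on the scaling. RBM12B stood at 17.1 and 18.1 FPKM and RBM33 at 3.90 and 4.08 FPKM. The highest change of the family was that of RBM43, at 1.26 FPKM in normoxia and 1.82 FPKM in hypoxia. Its log2 change of 0.50 lay nearest to the upper 1.5-fold line. At equal sums RBM43 was at 0.72 and RBM15 at 0.64, both past that line, as were 18.6% of all genes. RBM48, of the minor spliceosome, stood at 8.20 and 7.93 FPKM, where the sign depended on the scaling. RBM8A, RBM20, RBM46, RBMXL2 and RBMXL3 were not analysed here.

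The study followed single isoforms, and 72 of the 82 family transcripts had a mean of at least 0.5 FPKM. At least 1.5-fold lower were 10 of them, or 13.9%, where 14.3% of all 18190 transcripts were, and 1 was higher, where 10.5% of all were. The median change was -0.28 for the family and -0.09 for all transcripts. The 64 coding transcripts had a median of -0.30. The 8 noncoding ones had a median of -0.08, with 4 below 0. Medians of all coding and all noncoding transcripts were not worked out, so there is nothing to set these against. More than 1 transcript above the limit was found for 21 genes, and in 10 of these the transcripts had changes of opposite sign. Some of these signs rest on changes near 0, such as the highest of RBMX at 0.022 and the lowest of RBMS3 at -0.018. The share of all genes with such opposite signs was not worked out, so the count cannot be read as particular to the family. The levels of overlapping transcripts are estimates that divide shared reads, so a low isoform is less certain than the sum of its gene.

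**Figure D3:**
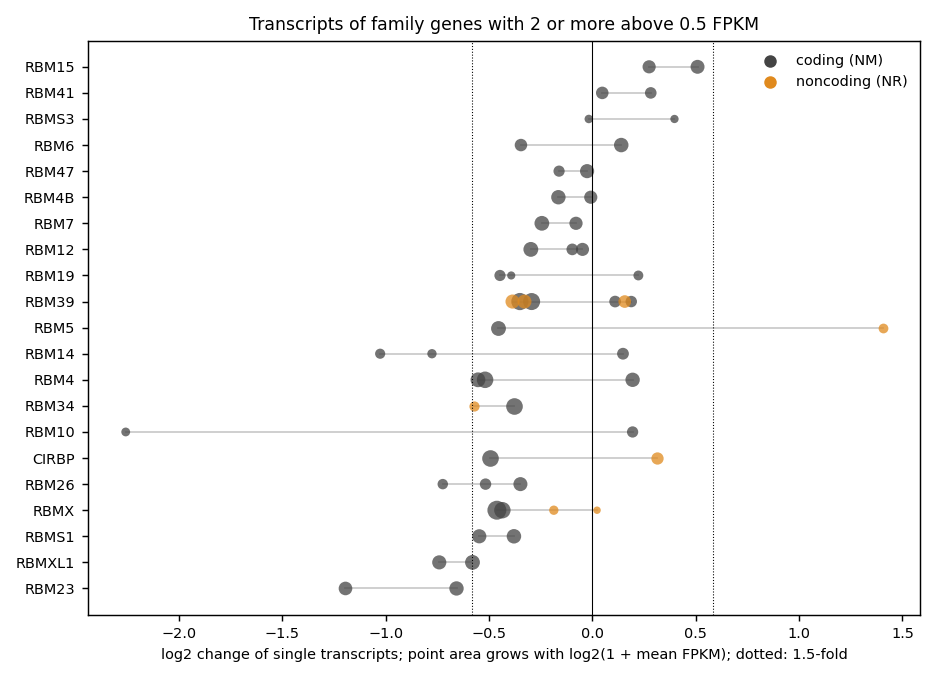
Log2 changes of single transcripts for the 21 family genes with at least 2 transcripts above 0.5 FPKM, in order of the change of the gene, with coding transcripts in grey, noncoding ones in orange, point area growing with mean FPKM and dotted lines at 1.5-fold. The noncoding transcript of RBM5 lies alone beyond the upper line at 1.40, and 1 transcript of RBM10 lies lowest at -2.26.

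RBM5 had the one family transcript that was at least 1.5-fold higher. Its noncoding transcript NR_036627 stood at 0.976 FPKM in normoxia and 2.75 FPKM in hypoxia, and its share of the RBM5 sum was 4.47% and 15.3%. The coding transcript NM_005778 stood at 20.9 and 15.2 FPKM (log2 change -0.46). RBM5-AS1, a long noncoding RNA read from the opposite strand within RBM5 (GRCh37, chromosome 3, 50137036 to 50138421), stood at 2.46 and 4.99 FPKM, 1.99-fold higher. The library kit keeps the strand, but whether strand was used when reads were assigned is not given in the sources used here, so the part of antisense reads in the RBM5 values was not tested. The annotated 3′ end of RBM6 overlaps both RBM5 and this antisense RNA.

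In RBM10 the sum hid a larger difference between isoforms. NM_001204466 stood at 2.04 FPKM in normoxia and 0.347 FPKM in hypoxia, a log2 change of -2.26, and its share of the sum went from 35.8% to 8.09%. NM_152856 stood at 3.39 and 3.90 FPKM, and its share went from 59.6% to 90.8%. The other two transcripts were below 0.15 FPKM in both conditions. In RBM14, NM_001198836 stood at 3.02 and 1.43 FPKM and NM_006328 at 1.95 and 1.10 FPKM, both at least 1.5-fold lower. NM_001198837 of the same gene stood at 4.34 and 4.81 FPKM, so that its share went from 46.6% to 65.6%.

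CIRBP had a coding transcript at 51.2 FPKM in normoxia and 36.3 FPKM in hypoxia, and a noncoding one, NR_023312, at 5.05 and 6.30 FPKM. The share of the noncoding one was 8.96% and 14.8%. Both transcripts of RBM23 were at least 1.5-fold lower, with log2 changes of -1.20 for NM_001077351 and -0.66 for NM_018107. The 7 transcripts of RBM39 had changes between -0.39 and 0.19, and none was past 1.5-fold. RBM15 was higher in both of its transcripts, by 0.27 and 0.51 on the log2 scale.

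**Figure D4:**
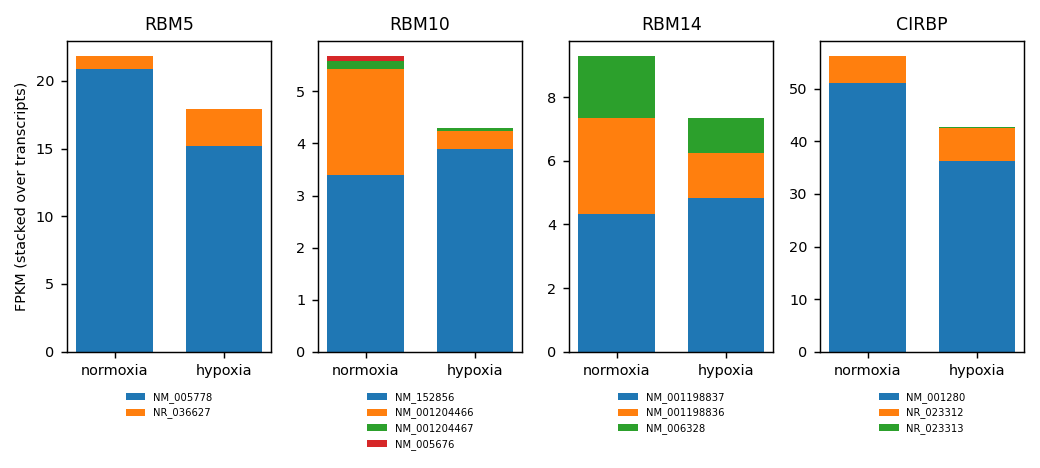
Stacked FPKM of the transcripts of RBM5, RBM10, RBM14 and CIRBP in normoxia and hypoxia, 1 pooled value per condition, with each gene on its own axis. One transcript of RBM10 shrinks from 2.04 to 0.347 FPKM while another goes from 3.39 to 3.90 FPKM, and the noncoding transcript of RBM5 grows from 0.976 to 2.75 FPKM.

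The antisense and readthrough loci whose symbols carry a family name were kept apart from the 41 genes. RBM12B-AS1 stood at 4.54 FPKM in normoxia and 4.42 FPKM in hypoxia, RBM26-AS1 at 1.24 and 0.953 FPKM and CIRBP-AS1 at 0.621 and 0.400 FPKM. RBMS3-AS3, RBM15-AS1 and the readthrough RBM14-RBM4 were below 0.5 FPKM in both conditions. RBM5-AS1 was the only one of these loci past 1.5-fold among those above the limit.

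Genes of the complexes in which RBM proteins work also mostly had a change below 0. Of 31 listed partners, 27 had a change below 0 and 7, or 22.6%, were at least 1.5-fold lower, with none higher and a median of -0.39. Of all genes 56.4% were below 0, 11.2% were at least 1.5-fold lower and 9.94% higher. Among all genes with a mean of at least 10 FPKM, 68.3% were below 0, and the partners were not compared with genes of like level. With both columns scaled to equal sums, 20 partners were below 0, 4 were at least 1.5-fold lower and 1 was higher, where 36.0% of all genes were below 0, 4.99% lower and 18.6% higher. METTL3, the catalytic subunit of the m6A complex, was at 30.8 FPKM in normoxia and 19.5 FPKM in hypoxia, while METTL14, its partner subunit, was at 14.5 and 14.7 FPKM. PUF60, which helps to define 3′ splice sites, went from 12.8 to 6.07 FPKM. ARMC7, the partner of RBM48, went from 1.44 to 0.669 FPKM.

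TRA2B, a splicing activator that binds RBMX, went from 92.8 to 52.0 FPKM. PPIL1, of the activated spliceosome, went from 82.5 to 46.3 FPKM. U2SURP, of the U2 snRNP, went from 62.8 to 41.7 FPKM, and MAGOHB, of the exon junction complex, from 23.7 to 13.5 FPKM. All 5 listed exon junction genes were below 0, with a median of -0.46. ZFC3H1, of the PAXT pathway, had the highest change of the partners, from 7.36 to 10.7 FPKM (log2 change 0.53), unlike RBM26 and RBM27 of the same pathway, which were below 0.

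**Figure D5:**
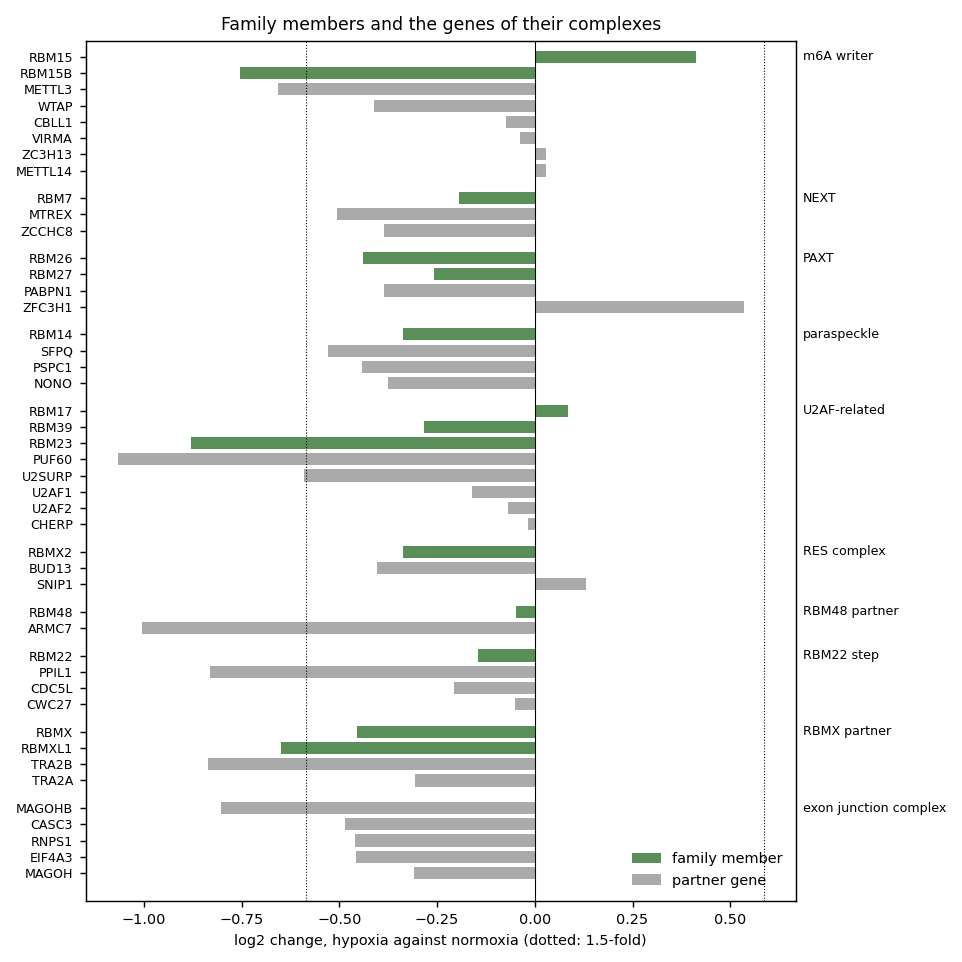
Log2 changes of family members (green) and of the listed partner genes (grey), grouped by complex, with dotted lines at 1.5-fold. All bars of the exon junction, paraspeckle and NEXT groups point left, ZFC3H1 and RBM15 point right, and the directions of short bars change with the scaling of the columns.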

How the data were processed

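The authors prepared stranded poly(A) libraries, aligned reads to hg19 with STAR 2.3.0.1 and ran Cufflinks 2.1.1 with RefSeq transcripts. FPKM values were used as deposited, 1 per condition over 4 replicates. Columns of the authors' own comparison (log2 fold change, test statistic, p-value and q-value) were not used. Depths of single samples were not analysed here. The planned limma test was left out because it needs a value for every replicate.

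Transcripts were named through RefSeq (GRCh38.p14), which matched 24289 of them (97.9%). FPKM values were summed per gene, 0.1 FPKM was added before taking log2, and genes or transcripts with a mean below 0.5 FPKM were left out. The pseudocount understates changes of low genes. A change of at least 1.5-fold is a description. Listed loci are bundles, and 11 of the 39 family loci hold another named gene. 1 unnamed transcript in the RBM34 locus was left out. Positions came from GENCODE v44lift37, and protein identities from its translated transcripts, aligned with Biopython 1.88. Python 3.11.15, numpy 2.4.6, pandas 2.3.3, matplotlib 3.10.9 and pysam 0.24.0 were used, and the script was tested on simulated data.

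Named genes were CIRBP, RBM3, every RBMX, RBMXL and RBMS gene, genes past 1.5-fold or nearest to it, the 5 most abundant, and genes whose transcripts differed by at least 1 on the log2 scale or had opposite signs beyond 1.2-fold. Further members illustrate their role group. Members and lists were chosen with earlier results of these data known, and the protein pairs of RBM15, RBM23, RBM26 and RBM12 were added after their values were seen. Alternatives to the pseudocount, limit, scaling, fold and summing were tried.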

Additional observations from a re-analysis of the deposited data

How the results depend on the processing

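No paired analysis was possible because each condition has 1 pooled value, and the alternatives that leave out a replicate or use a replicate block were not run for the same reason. Scaling both columns to equal FPKM sums gave 2 family genes lower and 2 higher by at least 1.5-fold, and 4 transcripts lower and 4 higher. The medians were then -0.058 for family genes, -0.051 for transcripts and -0.17 for partner genes, against -0.28, -0.28 and -0.39 as reported. With that scaling 4.99% of all genes were lower and 18.6% higher past the same fold. Quantile normalization gave medians of -0.14, -0.14 and -0.26, and 2 transcripts higher. Centring on the median gene gave 3 transcripts higher. Shares of all transcripts past 1.5-fold were worked out only for the values as reported, at 14.3% lower and 10.5% higher. The transcript counts under other scalings therefore have no share of all transcripts to be set against. A fold of 1.2 gave 20 genes lower and 3 higher, and 36 transcripts lower and 8 higher. A fold of 2 left 1 gene and 4 transcripts lower, and 0 genes and 1 transcript higher. Shares of all genes and transcripts past these folds were not worked out, so the counts cannot be read as particular to the family. Among 133 values of the 19 named genes under alternatives, 39 moved by more than 0.1 on the log2 scale and 4 changed sign. These were RBM10 (0.19), RBM14 (0.15) and RBMS3 (-0.018) when only the most abundant transcript was used, and RBMS2 (0.063) at equal sums. Of the 5 genes at least 1.5-fold lower, 3 fell short of that fold under an alternative, RBM15B and RBM28 at equal sums and RBMXL1 under each of the 3 scalings and with only its most abundant transcript (-0.58). RBM3 stayed at least 2-fold lower under each scaling tried, with -1.02 at equal sums. Values of low genes and of minor isoforms carry the least certainty, since no count or replicate spread stands behind them here.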
